A study of Mus musculus with 4 samples.

Results

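A set of 6 transcription factors of heart development, Nkx2-5, Tbx5, Tbx20, Hand2, Mef2c and Isl1, were followed in mouse embryonic stem cell (ESC) lines without Dppa2. The members were every array probe whose accession maps to these symbols, which gave 9 probes for 6 of 6 genes, of 40941 probes measured. Their values are log2 fluorescence of each probe after every array was scaled to its own 75th percentile. Detected means that the extraction software scored a probe as well above background on that array. Probes had to be detected in this way in both KO lines or in both WT lines to be tested. By this filter 5 of the 9 probes and 5 of the 6 genes entered a test of 21639 genes and transcripts, and Tbx5 did not.

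The 2 KO lines were ECAT15-1 CT/CT and ECAT15-2 -/-: they lacked Dppa2 (ECAT15-2) and carried a conditional targeted allele of its neighbour Dppa4 (ECAT15-1) on both copies. The 2 WT lines were +/+ at both genes, so the 2 groups differ at both genes. All lines were derived from embryonic day 3.5 blastocysts of a double heterozygous intercross on a mixed 129Sv and C57/BL6 background that also includes a Cre or FLPe transgenic strain of unknown background. KO 1 and WT 1 came from mother 1046 and KO 2 and WT 2 from mother 875, and each line was grown for 3 days on gelatin in medium with 15% fetal calf serum and LIF, the cytokine that holds mouse ESCs undifferentiated. Total RNA of each line was hybridised to 1 whole-genome array, so n = 2 lines per genotype throughout.

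Nkx2-5 is a homeodomain protein that marks cardiac progenitors and activates heart muscle genes. Tbx5 and Tbx20 are T-box factors that bind DNA together with Nkx2-5, Hand2 is a basic helix-loop-helix factor of the right ventricle, Mef2c is a MADS-box factor of muscle, and Isl1 is a LIM-homeodomain factor of the second heart field, which also marks motor neurons and other progenitors. In the embryo these genes are switched on in mesoderm, after the pluripotent stage that ESCs represent. The question asked of the arrays was whether a change of Nkx2-5 was shared by the other heart regulators.

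The promoters of the pair of tested members whose genotypes did not overlap, Nkx2-5 and Isl1, are shown because they differ in their content of CpG dinucleotides, the bases that carry DNA methylation. The sequences are from RefSeq on GRCm38.p6, run from 250 bases before to 50 after the annotated start, and are printed 5′ to 3′ on the gene's strand with every CpG in capitals. The Nkx2-5 promoter lies at chr17:26841516-26841815 on the minus strand and the Isl1 promoter at chr13:116309639-116309938 on the minus strand.
Nkx2-5: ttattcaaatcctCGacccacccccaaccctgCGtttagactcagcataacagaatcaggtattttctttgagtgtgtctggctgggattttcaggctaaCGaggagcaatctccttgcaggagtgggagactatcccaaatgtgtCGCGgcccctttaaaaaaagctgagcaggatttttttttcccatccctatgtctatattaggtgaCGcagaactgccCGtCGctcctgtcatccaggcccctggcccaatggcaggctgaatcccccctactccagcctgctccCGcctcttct
Isl1: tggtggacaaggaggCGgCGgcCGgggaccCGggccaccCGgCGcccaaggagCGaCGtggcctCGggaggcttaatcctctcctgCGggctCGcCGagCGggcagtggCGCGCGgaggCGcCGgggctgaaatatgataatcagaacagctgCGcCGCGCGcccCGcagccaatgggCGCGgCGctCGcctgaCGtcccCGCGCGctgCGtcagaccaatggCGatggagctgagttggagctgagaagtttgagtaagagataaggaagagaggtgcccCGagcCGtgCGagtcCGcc
The Nkx2-5 promoter held 9 CpG and 51.7% G+C, close to the medians of 7 CpG and 52.7% over 32851 promoters of the same length. The Isl1 promoter held 37 CpG and 69.0% G+C, more CpG than 94.4% of promoters, with an observed over expected CpG ratio of 1.05 against 0.47 for Nkx2-5. The promoters of Tbx20 and Hand2 held 26 and 17 CpG and the 3 promoters of Mef2c held 1, 10 and 4; no promoter was matched for Tbx5. Of 3 short motifs searched on both strands, AAGTG (the core bound by NK2 factors, present in 46.4% of all promoters), AGGTGT (bound by T-box factors, 13.7%) and AGATAA (bound by zinc finger factors such as Gata4, 11.2%), the Isl1 promoter held AGATAA alone and the Nkx2-5 promoter held none. These matches describe letters in a window, and no methylation or binding was measured.

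The 4 arrays detected between 28151 and 28931 of 41174 gene probes, with no saturated spot. The targeted gene Dppa2 measured 7.05 and 7.12 log2 signal in the KO lines, against 12.09 and 12.03 in the WT lines, a log2 difference of -4.97 ± 0.12 (SE; limma adjusted p = 0.00886). The residual KO signal was still well above background; whether this probe lies inside or outside the deletion was not known here. Dppa4 measured 13.95 and 14.07 in the KO lines, against 13.37 and 13.54 in the WT lines (limma adjusted p = 0.154). Over all 21639 genes tested, limma with Benjamini-Hochberg adjustment at 0.05 called 361 lower in the KO lines (1.67%) and 38 higher (0.176%), and the median log2 difference was 0.10. With the mother as a block in the same model, no gene passed (smallest adjusted p = 0.0807; before adjustment, 2734 genes were lower and 2280 higher at the 0.05 level), so every call below is lost with that block. Without KO 2, WT 1 or WT 2 no gene passed either (smallest limma adjusted p 0.0658, 0.135 and 0.143; before adjustment 2468, 1728 and 1787 genes were lower and 1449, 1181 and 921 higher at the 0.05 level), and this holds for every call named here. A test of only the probes detected on all 4 arrays also left no call (smallest limma adjusted p = 0.0502).

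Of the 6 heart factors, Nkx2-5 alone passed the test, and it was lower in the KO lines. That is 1 of 5 tested members lower and 0 higher, beside backgrounds of 1.67% lower and 0.176% higher. Nkx2-5 passed the detection filter only through the WT lines, where it is high, so the filter favoured a lower call. Without adjustment, limma's p was 0.000141 for Nkx2-5 and 0.00242 for Isl1, and those of the other tested members were between 0.245 and 0.748. Tbx20 and Mef2c gave differences near 0 with wide intervals, Hand2 and Tbx5 lay at the detection limit, and Isl1 was about 2.08-fold brighter in the KO lines without passing the adjusted threshold. Each array reads RNA of a whole culture, so fewer cells that express a gene and less RNA per cell cannot be told apart.

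Nkx2-5 (chromosome 17, 1 probe) measured 3.46 and 3.15 log2 signal in the KO lines, against 8.17 and 7.55 in the WT lines. Both WT values were well above background and neither KO value was, so the groups did not overlap and the KO level is only a bound. In raw median brightness the spot read 40 and 36 in the KO lines over local backgrounds of 27.5 and 32, against 313 and 204 in the WT lines over 29 and 30. The mean was 3.31 ± 0.22 in the KO lines and 7.86 ± 0.44 in the WT lines (SD, n = 2 each). On this scale Nkx2-5 was at least 22.2-fold lower in the KO lines. The bound sets the WT mean against a KO level raised, where needed, to the detection floor of its array. This floor is the dimmest signal of any detected probe (log2 3.24 to 3.58 over the 4 arrays). KO 1, at 3.46, lay above the floor of its array (3.24) without being detected, so the floor is not a strict limit. This bound and those below hold for this background correction only. The fitted log2 difference was -4.55 (SE 0.28, 95% interval -5.36 to -3.75; limma adjusted p = 0.0250). The fall was present in both mothers' pairs, at -4.71 for mother 1046 and -4.39 for mother 875. Its adjusted p was 0.0819 with the mother as a block, and 0.0831 without KO 2, 0.142 without WT 1 and 0.144 without WT 2. Background correction with the normexp method was run with a chosen constant offset of 50 added to every spot. It gave -1.98 with 75th-percentile scaling and -1.82 with quantile scaling, and both passed (limma adjusted p = 0.0224 and 0.0488). Nkx2-5 was singled out with its result on these arrays known, so its call is not independent evidence.

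**Figure D1:**
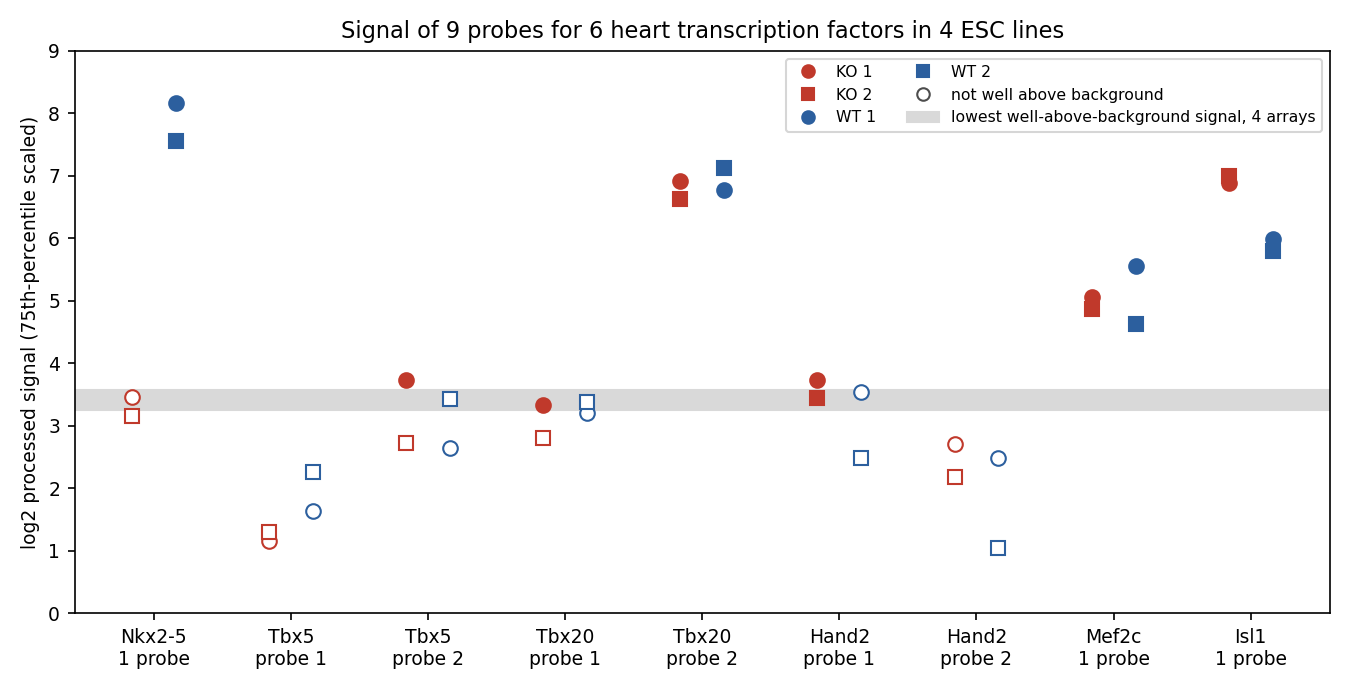
Log2 processed signal (75th-percentile scaled) of each of the 9 probes in the 2 KO lines (red, left of each pair) and the 2 WT lines (blue); circles are mother 1046, squares are mother 875, and open symbols are not well above background. The grey band spans the lowest well-above-background signal of the 4 arrays; Nkx2-5 lies in or below it in both KO lines and near 8 in the WT lines, while Isl1 is higher in both KO lines.

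The plot of probe signals by line shows that Isl1 was the other tested member whose genotypes did not overlap. Isl1 (chromosome 13, 1 probe printed as 10 spots on each array) measured 6.89 and 6.99 in the KO lines, against 5.98 and 5.79 in the WT lines, all well above background. Both KO lines lay above both WT lines, by 0.91 in the pair of mother 1046 and by 1.20 in that of mother 875. The repeated spots allow a check within each array: 9 or 10 spots were kept, and their SD was 0.07 and 0.08 in the KO lines and 0.11 and 0.18 in the WT lines. The mean was 6.94 ± 0.07 in the KO lines and 5.88 ± 0.13 in the WT lines (SD, n = 2 each). The difference was 1.05 (SE 0.14, 95% interval 0.64 to 1.46; limma adjusted p = 0.0721), and it passed under 0 of 14 alternative settings, with values between 0.54 and 1.24. Over all tested genes, 24.5% had non-overlapping genotypes with the KO lines lower and 37.7% with the KO lines higher, so the lack of overlap alone sets neither Nkx2-5 nor Isl1 apart.

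Neither T-box partner of Nkx2-5 had a called change. For Tbx20 (chromosome 9), the brighter of 2 probes measured 6.92 and 6.63 in the KO lines, against 6.77 and 7.12 in the WT lines, all well above background. The genotypes overlapped, KO 1 being above and KO 2 below its WT partner, and the difference was -0.17 (SE 0.20, 95% interval -0.76 to 0.41; limma adjusted p = 0.617). The second Tbx20 probe, at 3.33 and 2.80 in the KO lines against 3.21 and 3.38 in the WT lines, was well above background on the KO 1 array only. For Tbx5 (chromosome 5), the first probe measured 1.16 and 1.30 in the KO lines against 1.63 and 2.25 in the WT lines, with no array well above background, so no fold is given. The second Tbx5 probe measured 3.73 and 2.73 in the KO lines, against 2.64 and 3.42 in the WT lines, and was well above background on the KO 1 array only. In a fit of every probe without the filter, neither Tbx5 probe passed (limma adjusted p = 0.311 and 0.813).

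Hand2 and Mef2c also overlapped between the genotypes. For Hand2 (chromosome 8), the brighter of 2 probes measured 3.74 and 3.44 in the KO lines, both well above background, against 3.54 and 2.48 in the WT lines, neither of them so. The KO values were thus barely over the detection limit, and WT 1 lay above KO 2, so no bound is given. The difference did not pass (0.58, SE 0.42, 95% interval -0.62 to 1.79; limma adjusted p = 0.440). The second Hand2 probe measured 2.71 and 2.17 in the KO lines against 2.48 and 1.04 in the WT lines, and was well above background on no array. Mef2c (chromosome 13) measured 5.06 and 4.87 in the KO lines, against 5.55 and 4.63 in the WT lines, all well above background. Both KO values fell between the WT values, and the difference was -0.13 (SE 0.37, 95% interval -1.18 to 0.92; limma adjusted p = 0.845). Its interval does not exclude a change of about 1 log2 unit in either direction.

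The change of each other member was compared directly with that of Nkx2-5 by taking, in each line, the other member's log2 value minus that of Nkx2-5. The KO minus WT difference of this quantity was 4.38 for Tbx20, 4.42 for Mef2c and 5.60 for Isl1, the members detected on all 4 arrays, and had the same sign in both mothers' pairs. These values are mainly the fall of Nkx2-5 itself. For Tbx5 and Hand2, which were not detected in the WT lines, the values are not given. The exact two-sided permutation test over lines gave p = 0.333 for each of the 5 comparisons, and 0.333 after Benjamini-Hochberg adjustment, which is the smallest p that 2 against 2 lines allow. This test can therefore not reach 0.05 here and says nothing about whether the changes differ, and since the KO values of Nkx2-5 lie at background the size of the differences depends on the background correction.

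**Figure D2:**
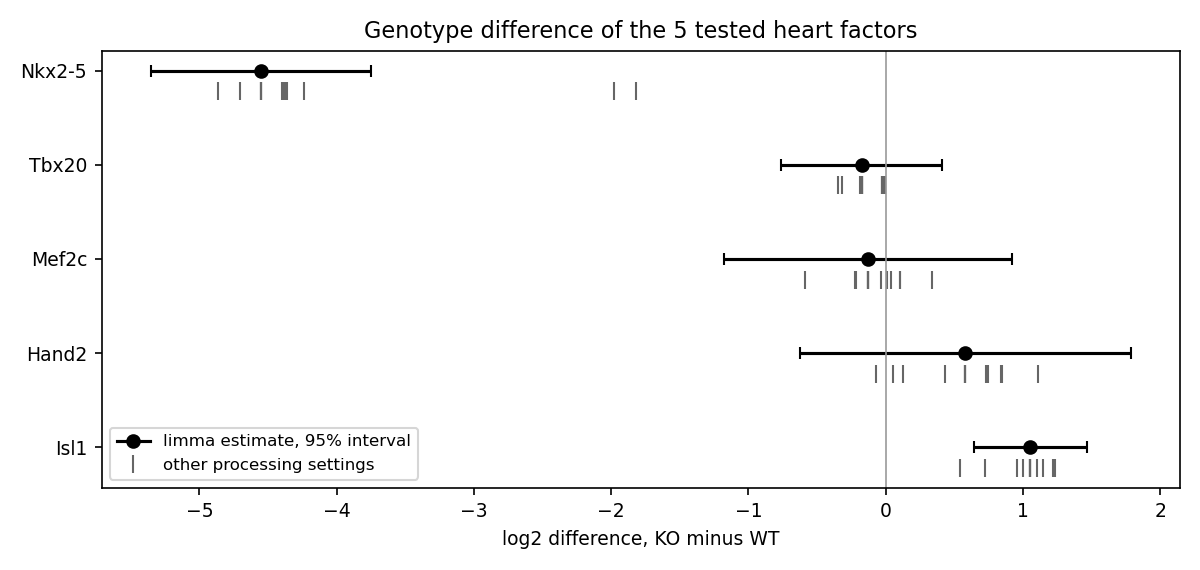
KO minus WT log2 difference of the 5 tested heart factors with the 95% interval of the limma fit (points and bars), and the same difference under each alternative processing setting (short vertical ticks). Nkx2-5 stays below 0 in every setting, from -4.86 to -1.82, Isl1 stays above 0, and the intervals of Tbx20, Mef2c and Hand2 include 0.

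The wider set of heart regulators was read from a list of 44 other transcription factors and cofactors of heart development, chosen with earlier results of these data known. Of 39 tested, 2 fell (Mesp2 and Myocd), 1 rose (Gata5) and 36 did not pass, where 1.67% of all tested genes were called lower and 0.176% higher. The median log2 difference was 0.04, between -0.17 and 0.21 over the alternatives, against 0.10 over all genes, with 20 genes above 0 and 19 below. In 11 genes the KO lines lay below the WT lines without overlap and in 9 above, of 39 tested, where 24.5% of all tested genes lay below and 37.7% above.

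Mesp2, a basic helix-loop-helix factor of presomitic mesoderm and the neighbour and paralogue of the cardiac mesoderm gene Mesp1, measured 4.13 and 4.06 in the KO lines, against 6.87 and 6.94 in the WT lines. The difference was -2.81 (SE 0.12; limma adjusted p = 0.0173, 0.0825 with the mother as a block), all 4 arrays were well above background and the genotypes did not overlap, whereas Mesp1 differed by 0.14. Under normexp the Mesp2 difference was smaller, at -1.27 or -1.09, and still passed (limma adjusted p = 0.0415 and 0.0428). Myocd, a coactivator of serum response factor in heart and smooth muscle, measured 1.18 and 1.34 in the KO lines, not well above background, against 4.24 and 3.99 in the WT lines. It was at least 1.79-fold lower in the KO lines (limma adjusted p = 0.0222, 0.0854 with the block), and under normexp its difference was -0.39 or -0.20 and did not pass. Gata5, a zinc finger factor of endocardium and endoderm, was the opposite case, at 3.87 and 3.41 in the KO lines, against 1.29 and 1.07 in the WT lines, which were not well above background. Its bound was at least 1.13-fold higher in the KO lines (limma adjusted p = 0.0408, 0.0848 with the block), and the difference shrank to 0.09 or 0.27 under normexp without passing. Gata5 also missed the threshold with no filter on dim probes and with a trended robust prior (limma adjusted p = 0.0550 and 0.0560). Myocd passed the detection filter only through the WT lines and Gata5 only through the KO lines, so the filter favoured the direction of each call.

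Below these, 5 regulators had the next smallest p without passing. Hand1, the paralogue of Hand2 and a factor of the left ventricle and of trophoblast, measured 4.24 and 5.53 in the KO lines, against 9.73 and 9.53 in the WT lines, a difference of -4.75 (SE 0.49; limma adjusted p = 0.0504) that passed in 5 of 14 alternatives. The forkhead factor Foxc1 differed by -2.08 (limma adjusted p = 0.103), the GATA cofactor Zfpm1 by -1.37 (0.0930) the zinc finger factor Casz1 by 1.00 (0.0746) and the T-box factor Tbx3 by 1.51 (0.104). Gata4, a partner of Nkx2-5 on heart promoters, differed by 0.53 (limma adjusted p = 0.290) by the brighter of its 2 probes and by 1.19 by the other. The dimmer of the 2 probes of Casz1 differed by 1.80.

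**Figure D3:**
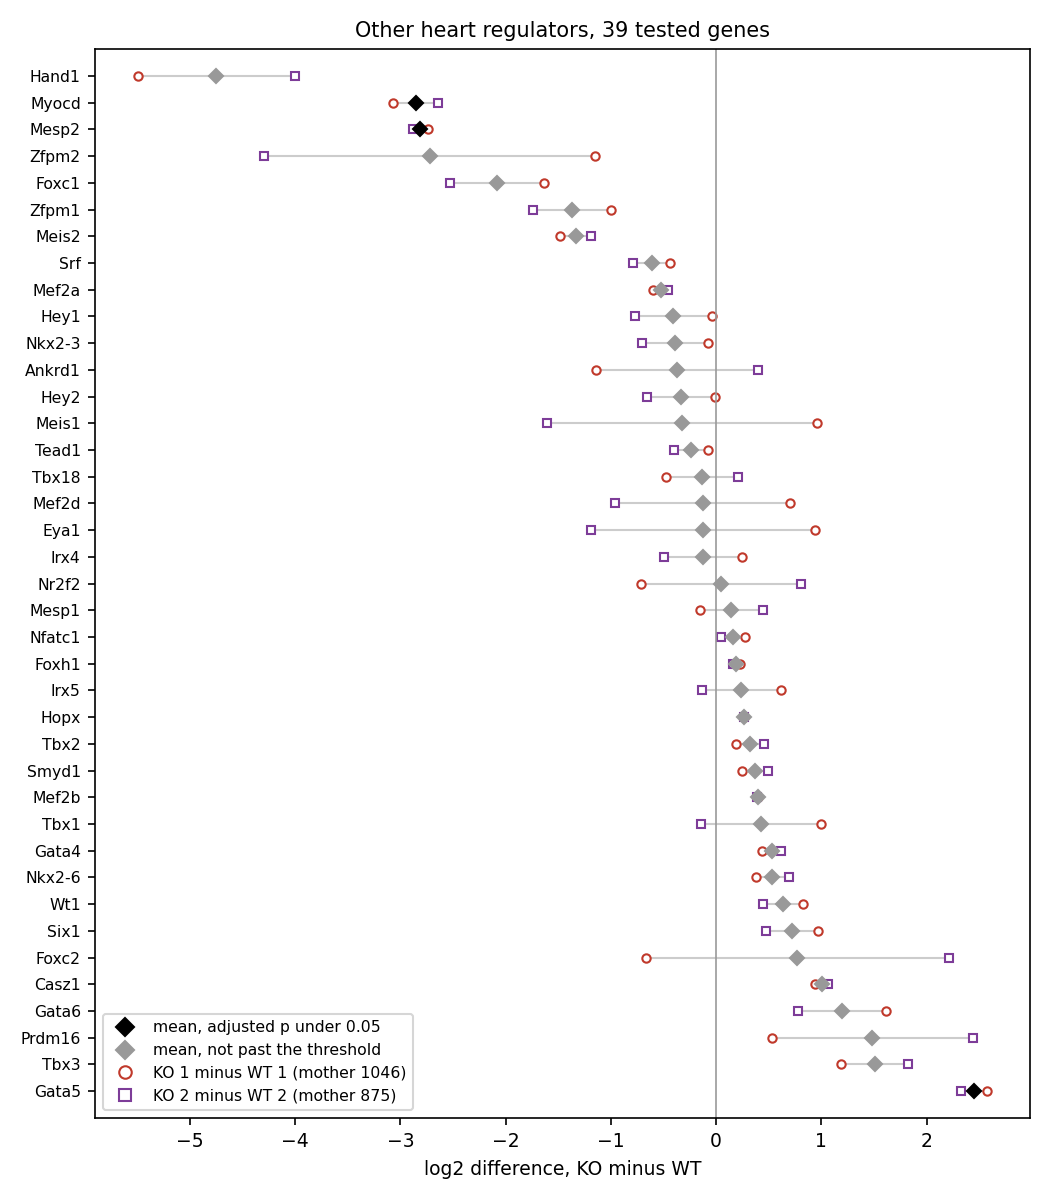
KO minus WT log2 difference of the 39 tested other heart regulators, ordered from lowest to highest: diamonds are means over the lines (black where the limma adjusted p is under 0.05), and open symbols are the pairs of mother 1046 (circles) and mother 875 (squares). The means of 20 genes lie above 0 and those of 19 below, with Myocd and Mesp2 called lower and Gata5 called higher.

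Among heart muscle genes, the products that cardiac factors switch on, 1 of 26 tested fell (Myh6), 0 rose and 25 did not pass, of 29 listed. Of all tested genes, 1.67% were called lower and 0.176% higher. The median difference of the heart muscle genes was 0.01 (between -0.19 and 0.18 over the alternatives). Of the 26 tested, 9 lay lower in the KO lines without overlap and 3 higher. Over all tested genes these shares were 24.5% lower and 37.7% higher. Myh6, the alpha myosin heavy chain of the contracting heart, measured 6.26 and 6.17 in the KO lines, against 8.76 and 8.68 in the WT lines. All 4 arrays were well above background, and its 2 probes differed by -2.51 and -2.40 (limma adjusted p of the brighter = 0.0192, 0.0837 with the block). The beta myosin heavy chain Myh7 measured 9.37 and 7.51 in the KO lines, against 12.16 and 11.06 in the WT lines, a larger but more scattered difference of -3.17 (SE 0.80; limma adjusted p = 0.151). Csrp3, a LIM protein of the muscle Z-disc, was not well above background in the KO lines at 3.39 and 1.22, against 7.25 and 5.56 in the WT lines, a bound of at least 8.29-fold lower whose difference did not pass (limma adjusted p = 0.148) and whose difference of -4.10 was -1.25 or -1.04 under normexp. Cardiac alpha-actin Actc1 differed by -2.06, the Z-disc protein Nexn by -1.57, the atrial light chain Myl4 by -0.96 and desmin (Des) by 0.95, with limma adjusted p between 0.0898 and 0.204. Cardiac troponin I (Tnni3) differed by 0.29 (limma adjusted p = 0.282). The natriuretic peptide gene Nppa, a direct target of Nkx2-5, differed by 0.01 with opposite directions in the 2 mothers' pairs.

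**Figure D4:**
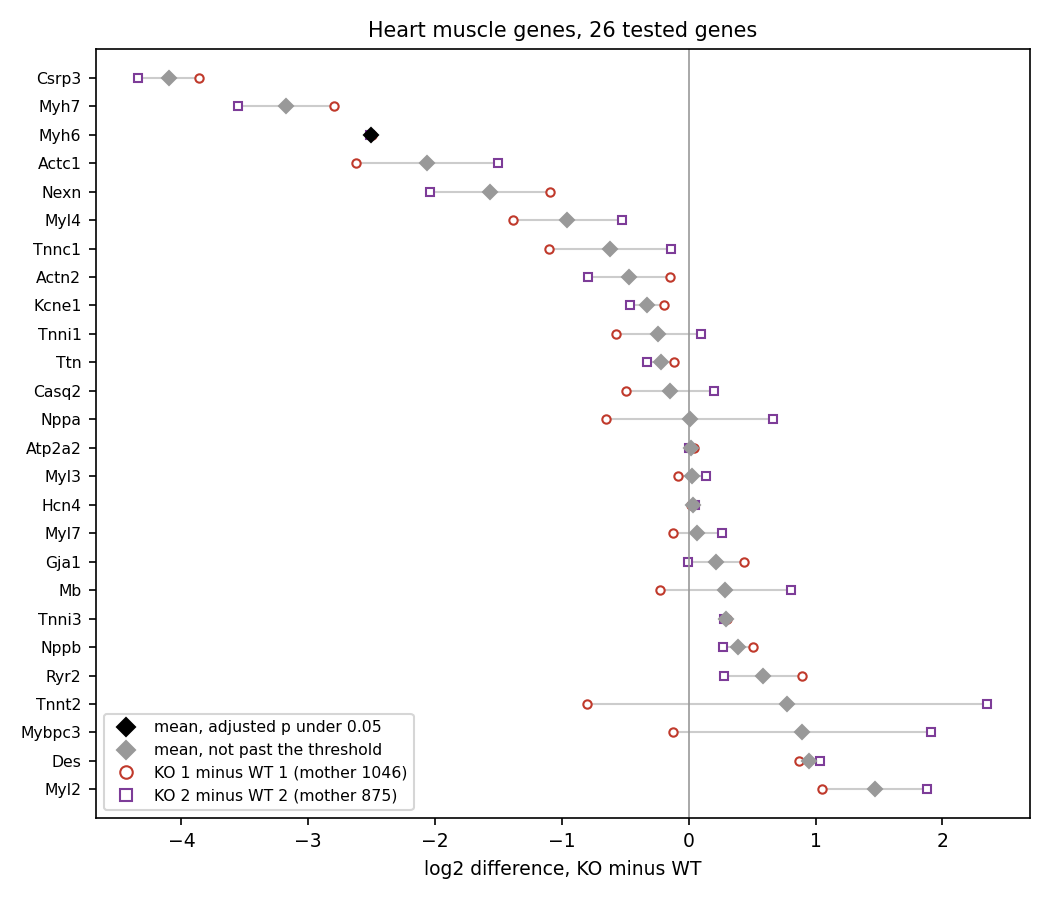
KO minus WT log2 difference of the 26 tested heart muscle genes, ordered from lowest to highest, with diamonds for means (black where the limma adjusted p is under 0.05) and open symbols for the pairs of mother 1046 (circles) and mother 875 (squares). Myh6 alone is called; Csrp3 and Myh7 have lower means, and the pairs of Tnnt2 lie on opposite sides of 0.

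The list of signals that induce or restrain heart formation gave 1 fall and 1 rise among 25 tested genes of 29 listed, with a median difference of -0.28. It holds ligands, receptors and antagonists, and also Id genes such as Id2 and Id3, which are none of these. Of all tested genes, 1.67% were called lower and 0.176% higher. Wnt3a, a canonical Wnt ligand, measured 7.82 and 7.87 in the KO lines, against 6.03 and 6.04 in the WT lines, a rise of 1.81 (SE 0.12; limma adjusted p = 0.0264, 0.0892 with the block) that was 1.13 or 1.28 under normexp and still passed (0.0466 and 0.0303). Noggin (Nog), a secreted BMP antagonist, measured 4.93 and 5.01 in the KO lines, against 6.42 and 6.30 in the WT lines (-1.39; limma adjusted p = 0.0430, 0.107 with the block), and of 14 alternatives it passed only with every probe tested separately (0.0421). Fgf8, a growth factor of gastrulation and of cardiac mesoderm, measured 7.28 and 7.02 in the KO lines, against 10.73 and 9.85 in the WT lines, without overlap or passing (-3.14; limma adjusted p = 0.0562). Wnt3, a ligand needed for the primitive streak, differed by -2.80 (limma adjusted p = 0.123).

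No tested relative of the members in their gene families passed the test. Of the NK homeobox family other than Nkx2-5, 0 of 9 tested genes passed, with a median of -0.36, and those with the smallest p were Nkx6-2 (1.26), Nkx2-2 (-1.68), Nkx1-2 (-1.29) and Nkx2-6 (0.53). Nkx2-6, the closest of these to Nkx2-5 in its role in the pharynx and heart, was 6.84 and 6.83 in the KO lines, against 6.46 and 6.14 in the WT lines (limma adjusted p = 0.191). Of the T-box family other than Tbx5 and Tbx20, 0 of 11 passed, with a median of -0.14 that crossed 0 in some settings (-0.26 to 0.12). The mesoderm founder T measured 8.01 and 5.01 in the KO lines, against 11.54 and 10.42 in the WT lines, a difference of -4.47 whose KO lines stood 3.00 log2 units apart (SE 1.18; limma adjusted p = 0.159). Eomes, a T-box factor of mesoderm and trophoblast, differed by -1.80 (limma adjusted p = 0.0746), and Tbx3, a factor of ESC self-renewal and of the cardiac conduction system, by 1.51 (0.104). The limb factor Tbx4 was not well above background in the KO lines, at 1.00 and 2.74, against 4.18 and 3.51 in the WT lines, a bound of at least 1.48-fold lower that did not pass (limma adjusted p = 0.214). Of 4 relatives of Hand2 and Mef2c, 0 passed: beside Hand1, Mef2a differed by -0.53, Mef2b by 0.40 and Mef2d by -0.13. Of the LIM homeobox family other than Isl1, 0 of 8 passed, with a median of 0.36, and the paralogue Isl2 differed by 1.54 (limma adjusted p = 0.206), Lhx6 by 0.76, Lhx1 by -0.62 and Lhx5 by -0.58.

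Markers of other cell types that an ESC culture can hold were set beside the Nkx2-5 change. Early mesoderm markers were lower in total, with a summed linear signal of 2109 and 1402 in the KO lines, against 7533 and 4229 in the WT lines. T and Fgf8, neither of which passed, together made up 61.9% and 54.1% of the sums of WT 1 and WT 2. Of 13 tested, 1 fell (Mesp2) and 0 rose, and 9 lay lower without overlap against 1 higher, with a median of -0.62. Over all tested genes, 24.5% lay lower and 37.7% higher without overlap, and 1.67% were called lower and 0.176% higher. Skeletal and smooth muscle markers summed to 38699 and 21622 in the KO lines, against 129275 and 115949 in the WT lines (0 of 10 passed, median -1.32, 9 of 10 lower without overlap). Trophoblast markers summed to 88109 and 67273 in the KO lines, against 294871 and 382597 in the WT lines (1 of 11 fell, the keratin Krt8, median -1.51). Fibroblast and feeder markers summed to 91564 and 75209 in the KO lines, against 204391 and 127073 in the WT lines (2 of 20 fell, the protease Mmp2 and the fibrillin Fbn1, median -0.58). Tagln, also a muscle marker here and not called, made up 42.6% of this sum in WT 1 and 58.6% in WT 2. With Acta2, also a muscle marker, it made up 75.7% in WT 2. In the KO lines Vim was the brightest (39.1% and 34.9%). The lower fibroblast sum is thus not separate from the lower muscle sum. Primitive endoderm markers summed to 28806 and 26327 in the KO lines, against 56619 and 59974 in the WT lines (2 of 16 fell, Lrp2 and Dab2, 1 rose, Lama1, median -0.28). Endothelial and blood markers summed to 3485 and 2719 in the KO lines, against 4606 and 3214 in the WT lines (0 of 11 passed, median -0.72). Neural markers summed to 15293 and 10887 in the KO lines, against 17408 and 22890 in the WT lines (0 of 12 passed, median -0.19). Of these 12, 6 differed by more than 0 and 6 by less. Nes, which did not pass, made up 49.7% and 64.4% of the WT sums, so the lower neural sum rests largely on that gene. In the KO lines Tubb3 was the brightest (36.8% and 63.8%). Lama1, Lrp2, Dab2 and Krt8 also missed the threshold without KO 1 (limma adjusted p = 0.0504, 0.0548, 0.0541 and 0.0510). With no filter on dim probes Lama1, Dab2 and Krt8 missed it (0.0593, 0.0550 and 0.0644), and Krt8 also did so with quantile scaling, in the deposited table and with median centring (0.0515, 0.0516 and 0.0515). The Fbn1 difference of -2.82 was -1.87 or -1.71 under normexp and still passed (limma adjusted p = 0.0162 and 0.0224). Not tested, for lack of a probe that passed the detection filter, were among others the mesoderm gene Msgn1, the skeletal muscle genes Myf5, Myog, Pax7 and Ckm, the placental gene Tpbpa, the fibroblast gene Fap and the endothelial genes Cdh5 and Tie1.

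The summed signal of pluripotency markers was higher in both KO lines. It was 748591 and 867710 in the KO lines, against 583944 and 567313 in the WT lines, and all 16 tested had a positive difference, 14 of them without overlap, although 0 passed (median 0.79, smallest limma adjusted p = 0.0599 for Eras). Over all tested genes, 59.2% had a positive difference and 37.7% lay higher without overlap. The 16 were well above background on every array. Each sum rests on a few bright genes: Dppa5a made up 62.7% and 57.1% of the pluripotency sum in the KO lines, against 69.1% and 67.4% in the WT lines, Krt8 and Krt18 together 81.6% and 73.0% of the trophoblast sum in the KO lines, against 93.6% and 95.7% in the WT lines, and Acta2 and Tagln together 90.9% and 94.7% of the muscle sum in the KO lines, against 85.9% and 82.9% in the WT lines. These lists were chosen with earlier results of these data known, Hand1, Eomes, Fgf8, Mesp2, Acta2 and Tagln are among the genes that stand in more than 1 list, and the part of such cells in the Nkx2-5 result was not tested.

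None of the tested genes nearest to the members on the chromosome passed the test. Other annotated genes could lie between, as did 17 between Tbx5 and Med13l. Taking the 2 nearest tested genes on each side of each member in the RefSeq table gave 24 neighbours, of which 0 passed (smallest limma adjusted p = 0.0828). Those of Nkx2-5 were Bnip1 at 0.26, Crebrf at 1.04 (limma adjusted p = 0.101), Kifc5b at 0.17 and Phf1 at -0.32. Crebrf measured 4.72 and 5.11 in the KO lines, against 3.83 and 3.91 in the WT lines, so it lay higher without overlap where Nkx2-5 lay lower. Of the 24 neighbours, 17 did not overlap between the genotypes. Over all tested genes, 24.5% lay lower and 37.7% higher without overlap, so this alone does not set Crebrf apart. The lowest of the 24 was Parp8 near Isl1, at 8.07 and 7.45 in the KO lines, against 9.50 and 9.46 in the WT lines (-1.72). The highest was Tbx3 near Tbx5 (1.51). The other neighbours of Isl1 differed by 0.02 (Pelo), -0.77 (Itga1) and -0.75 (Emb), none with the direction and size of Isl1.

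The genes whose pattern over the 4 lines was nearest to that of Nkx2-5 were ranked by the root mean square difference of centred log2 values among 14371 tested genes with a symbol. They were Gbp7, an interferon-induced guanylate-binding protein (0.156), Glipr1l1 (0.166), the vasopressin receptor Avpr1a (0.174), the bacterial peptidoglycan sensor Nod1 (0.191), the gasdermin Gsdme (0.199) and the lectin Cd209d (0.212), all in log2 units. None is in the lists of heart genes. In 4 of the 6, Gbp7, Glipr1l1, Avpr1a and Cd209d, the KO values were not well above background, as for Nkx2-5. Nod1 measured 8.54 and 8.43 in the KO lines, against 13.72 and 12.65 in the WT lines, and Gsdme 6.36 and 5.89 in the KO lines, against 10.54 and 10.35 in the WT lines, so both fell within the measured range. Across all genes, 163 of the 361 falls were, like Nkx2-5, undetected in both KO lines. Of the 21639 genes tested, 429 were undetected in both KO lines. The detection filter admitted these only because both WT lines were bright, so a high share of falls among them follows from the filter. The 6 genes were picked for their likeness to Nkx2-5 over 4 points, so no test is given.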

How the data were processed

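RNA of 4 ESC lines, grouped by their titles into 2 KO and 2 WT lines, was measured on Agilent whole-genome arrays in the one-colour (Cy3) format. Per the file headers, the authors' intensity values come from Agilent Feature Extraction 10.7.3.1: processed intensity had its background subtracted and was detrended within the array, with no scaling between arrays, and median spot and local background intensity is raw. The deposited series table holds log2 values whose scale was read from the values: each column correlated at 0.9999 or above with log2 processed signal, all columns shared a median of 6.55 and genes were not centred. Per the labels, the submitters used GeneSpring GX11. The number of arrays limits the precision.

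From the processed intensity, log2 values were scaled to each array's 75th percentile over unflagged gene spots, spots of a probe were averaged, and 233 probes with outlier flags on every spot of an array were left out. Symbols were matched by accession to RefSeq on GRCm38.p6 (26582 probes matched 1 symbol, 0 several and 14359 none), while the files' annotation build is mm9, so array coordinates are not used. The brightest probe past the filter stood for its gene. KO minus WT was fitted across all genes with limma (version 3.58.1, R 4.3.3; genotype alone), and promoters and tables were read with Python 3.11.15, pandas 2.3.3 and scipy 1.17.1. The fit was also run on simulated data. These had independent noise and no effect of the mother or of the detection limit, so that run does not bear on either.

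Equal replicate numbers mark a shared mother, per the labels, so the mother served as a block in a further fit; the difference between mothers correlated at 0.19 across genes between the genotypes. All arrays shared 1 slide and 1 scan, so there is no such batch to test. Each line is its own derivation, so the spread is that between lines. The normexp alternative, with an offset of 50, used the median spot signal, because a mean signal is not in the files used here. Further alternatives were quantile scaling, the deposited table, median centring, 2 other filters on dim probes, every probe tested separately, a trended robust prior and leaving out each line. The members, gene lists and tests were chosen with earlier results of these data known. Named genes are the members, Dppa2, Dppa4, the called genes of each list or otherwise up to 4 (heart lists up to 8) with the smallest p, the nearest neighbours and the 6 genes most like Nkx2-5; Mesp1, Gata4 and Nppa were named after their values were seen. Some genes of the heart lists are not reported here and are left out of the counts and medians of those lists.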

Additional observations from a re-analysis of the deposited data

Results flagged for a closer look

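For 3 of the 6 heart factors the 2 mothers' pairs pointed in opposite directions, each KO line set against the WT line of the same mother. Tbx5 (second probe) differed by 1.09 in the pair of mother 1046 and by -0.69 in that of mother 875, with 3 of the 4 values not well above background. Tbx20 differed by 0.14 and by -0.49 in these pairs. Mef2c differed by -0.49 and by 0.24. The difference between the pairs was not tested, since each pair is 1 line against 1 line. Nkx2-5, Isl1 and Hand2 kept 1 direction in both pairs.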

How the results depend on the processing

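The Nkx2-5 difference was below 0 in 13 of 13 alternatives that gave a value and passed in 9. With the replicate block (mother) it was -4.55 with a limma adjusted p of 0.0819, and leaving out 1 line at a time gave -4.86 to -4.24. With probes well above background on all 4 arrays Nkx2-5 drops out by construction and gave no value. The count of heart factors called lower, 1, was 0 with that filter and 0 with the replicate block, and between 0 and 1 without 1 line; none was called higher in any of 14 alternatives. Over all genes, 361 lower calls became 0 with probes well above background on all 4 arrays (limma, smallest adjusted p 0.0502; before adjustment, 2183 were lower and 2448 higher at the 0.05 level), 0 with the replicate block, and 0 to 676 without 1 line. The 38 higher calls became 67 with normexp and the 75th percentile, 58 with median centring, 9 with no filter on dim probes, 81 with a trended robust prior, 0 with probes well above background on all 4 arrays, 0 with the replicate block, and 0 to 64 without 1 line; the cause was not tested. Median centring moved the median difference of all genes to 0.26, against 0.10. Hand2 turned to -0.072 with normexp and the 75th percentile. Mef2c turned to 0.11 with quantile scaling, 0.0081 with normexp and quantile scaling, 0.10 in the deposited table, 0.039 with median centring and, leaving out 1 line at a time, lay between -0.59 and 0.34 (the last without WT 1). Isl1 and Tbx20 kept their direction and did not pass in any alternative. Signal near background limits Tbx5, Hand2 and the KO level of Nkx2-5. The lines left out 1 at a time leave a genotype with 1 array, assumed to vary like the other genotype.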
